A study of Mus musculus with 17 samples.

Results

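The genes described here encode proteins that hepatocytes, the main cells of the liver, make and secrete into the blood plasma. The list was drawn up by function, with earlier results of these data known, so counts over it are a description. It holds 44 mouse genes: apolipoproteins, serpins (serine protease inhibitors), factors of clotting and fibrinolysis, complement proteins, carriers with fetuin B, and the heavy chains of inter-alpha-inhibitor. Of the 44, 29 had a named probe on the array, through 33 probes among 9030 genes and 20794 probes in all, and 27 of the 29 could also be read in the fetal samples. The listed genes without a named probe were Apob, Apoc2, Apoc3, Serpina1a, Serpina1c, Ahsg, F9, F11, Plg, Hrg, C3, C4b, C8a, C8b and C9.

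As background, these proteins are made with a signal peptide, folded and glycosylated in the endoplasmic reticulum and released through the Golgi. Liver transcription factors such as HNF1, HNF4 and C/EBP control many of their genes, and most are expressed at a high level in adult hepatocytes. Several of them start in the fetal liver together with alpha-fetoprotein (Afp), the main plasma protein of the fetus, which albumin replaces after birth.

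The study compared the liver of Afp knockout mice (AFP1 kO, with no further account of the allele) with the liver of wild-type mice on 2-colour cDNA arrays, in which the mutant and the wild-type RNA are labelled with different dyes and bound to the same slide. The adult group held 6 male mutants aged 17 weeks, each measured against a pool of RNA from 6 male wild-type mice of the same age. All 6 were measured with the mutant in Cy5, and animals 1, 2, 3, 4 and 6 also with the dyes exchanged, giving 11 arrays. The fetal group held 6 mutant embryos, 3 male (embryos 1 to 3) and 3 female (embryos 4 to 6), on 1 array each with the mutant always in Cy5, against a wild-type pool for which the labels list 4 animals. The labels call this tissue fetal liver and give embryonic day 7.5, a stage before a liver forms, so the stage is uncertain. The sex of the fetal pool is given as male on 2 arrays and as female on 4, although the listed animals are the same. No strain is named, and wild-type mice were measured only as pools, so the tests below carry no spread between wild-type animals. On the fetal arrays the genotype and the dye cannot be told apart.

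Each value is a log2 ratio of mutant over pool, so 0 means no difference and -1 means the mutant held 0.5 of the pool's level; 20078 to 20697 probes had a value per array, and array medians lay between -0.105 and 0.085. The log base is not stated, nor is the sign in which arrays with Cy3-labelled mutant RNA were deposited. They were read as already turned to mutant over pool: every value of theirs above 10 in size was negative (140 values), where every such value of the remaining arrays was positive (445 values). On these large values the adult direction was taken as a likely reading, but they do not settle it. Read this way, arrays of the same animal had a consensus correlation of -0.32 over features (limma). Across the 29 genes the adult Cy5 and Cy3 means had a correlation of -0.63 (Pearson, a description across genes). The part of the dye and of the sign in these correlations was not tested. Values with the sign turned are given in the adult paragraphs on the 29 genes together and on their groups by role. The paragraphs on single animals, on markers and on other genes give adult values only with the sign as read. The fetal columns were offset from the probe names by 11 rows and were moved back for probes up to number 20000, which leaves Vtn and Itih4 without a fetal value. The targeted gene, Afp, had a fetal log2 ratio of -8.40 ± 0.23 (SD, n = 6 embryos; adjusted p = 1.25e-08, limma), with every embryo between -8.79 and -8.11. In adult liver its ratio was -0.03 ± 0.19 (SD, n = 6; adjusted p = 0.944), so the adult arrays give no check of the genotype labels. Ratios carry no level, so the tissue labels could not be checked against marker abundance.

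Promoter sequences are shown for 6 of these genes, as the 250 bases before the start site from RefSeq on build GRCm38.p6. Of the 29 genes with a probe 24 had such a window, and 4 of them had several for different start sites. The capitals mark a match, on either strand, to 1 of 3 short motifs: AGGTCA, the hexamer of nuclear receptor sites (read TGACCT on the other strand); GTTAAT, a part of the HNF1 motif; and TATAAA, the TATA box. F2, F7 and F10 are neighbours in the clotting cascade, and F7 and F10 were not among the 10 genes with the smallest p in adult or fetal liver. Rbp4 and Serpinc1 had among the smallest p-values in adult liver, and Serpina1b had the smallest in fetal liver. F2 lies at chr2:91636458-91636707 on the minus strand, F7 at chr8:13025784-13026033 on the plus strand, F10 at chr8:13037058-13037307 on the plus strand, Rbp4 at chr19:38124812-38125061 on the minus strand, Serpina1b at chr12:103738190-103738439 on the minus strand and Serpinc1 at chr1:160978333-160978582 on the plus strand.
F2: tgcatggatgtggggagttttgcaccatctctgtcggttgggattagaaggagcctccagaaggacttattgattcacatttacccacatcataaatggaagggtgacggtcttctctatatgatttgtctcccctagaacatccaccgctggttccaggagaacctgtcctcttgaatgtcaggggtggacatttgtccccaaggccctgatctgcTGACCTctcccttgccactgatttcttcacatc
F7: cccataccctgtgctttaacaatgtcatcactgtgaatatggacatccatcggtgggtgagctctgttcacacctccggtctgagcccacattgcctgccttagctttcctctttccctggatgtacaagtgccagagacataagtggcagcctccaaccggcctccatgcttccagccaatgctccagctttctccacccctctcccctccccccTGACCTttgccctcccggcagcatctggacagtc
F10: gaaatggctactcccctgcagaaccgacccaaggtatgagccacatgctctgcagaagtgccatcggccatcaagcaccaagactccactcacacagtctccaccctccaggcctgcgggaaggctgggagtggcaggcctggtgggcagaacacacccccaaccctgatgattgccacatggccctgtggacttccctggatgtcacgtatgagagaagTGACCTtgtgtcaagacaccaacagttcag
Rbp4: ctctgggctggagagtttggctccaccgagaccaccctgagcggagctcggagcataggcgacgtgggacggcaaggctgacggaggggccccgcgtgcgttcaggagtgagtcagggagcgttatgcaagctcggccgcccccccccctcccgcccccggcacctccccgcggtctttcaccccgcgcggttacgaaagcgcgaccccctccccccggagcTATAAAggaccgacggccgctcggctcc
Serpina1b: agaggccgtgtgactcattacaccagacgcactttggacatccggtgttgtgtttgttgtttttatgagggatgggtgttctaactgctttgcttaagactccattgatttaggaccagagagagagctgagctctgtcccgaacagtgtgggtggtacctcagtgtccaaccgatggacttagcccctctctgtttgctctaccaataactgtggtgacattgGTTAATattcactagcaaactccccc
Serpinc1: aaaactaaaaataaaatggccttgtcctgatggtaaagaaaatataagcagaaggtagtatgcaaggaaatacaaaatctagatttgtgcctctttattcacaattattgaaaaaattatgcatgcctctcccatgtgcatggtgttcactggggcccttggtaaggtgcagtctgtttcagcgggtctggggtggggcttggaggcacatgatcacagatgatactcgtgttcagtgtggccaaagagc

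In F2, F7 and F10 the letters TGACCT began 33, 34 and 30 bases before the start, and F5, the cofactor gene, held them at 57 bases. On either strand the motif began elsewhere in Apoa2 (238 bases), Apoh (215), Serpinf1 (209), Serpinf2 (126), Itih4 (108) and Ambp (180 and 6). The window of F12, also a clotting gene, held none of the 3 motifs. Rbp4 held TATAAA 28 bases and Serpina1b held GTTAAT 26 bases before the start, and the Serpinc1 window held none of the 3. The second window of Rbp4 held none either. Counted over windows, AGGTCA or its reverse stood in 10 of the 29 windows of these genes (34.5%), against 14% of all 32851 windows in the table. GTTAAT stood in 4 of 29 (13.8%) against 6.43%, and TATAAA in 5 of 29 (17.2%) against 12.4%. Longer motifs had been searched first: GTTAAT followed after 1 base by ATT stood in 0 of 29 windows (0.371% of all windows) and CAAAGTCCA in 0 of 29 (0.384%). The shorter ones were chosen after that, so the shares are given as a description of these letters only. The motifs can overlap one another, as in Apoe.

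In adult mutant liver nearly all of the plasma protein genes had a mean below the wild-type pool, by a small amount that did not pass the test in any of them. The mean log2 ratio was below 0 for 28 of the 29 genes, against 48.2% of all 17039 features tested, and the median over the 29 was -0.31, against 0.01 over all features. At an adjusted p under 0.05 (limma, Benjamini-Hochberg over all features) 0 of 29 genes and 0% of all features were called. At an unadjusted p under 0.05, 7 of 29 were lower (24.1%), against 4.37% of all features, and 0 were higher, against 3.38%. Apoe, Rbp4, F2, F5 and Serpinc1 were below 0 in every animal, that is 5 of 29 against 2.81% of features, and 12 of 29 were below 0 in at least 5 of 6 animals, against 14.4%. These are means over the arrays of an animal, and each of the 5 genes was above 0 on some single array. In bulk tissue, fewer hepatocytes and less RNA per hepatocyte cannot be told apart. With the sign of the Cy3 arrays turned, the median over the 29 was 0.03, and 5 of them were called higher (Azgp1, Fetub, Itih1, Serpina1b and Serpind1), against 9.41% of features.

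**Figure D1:**
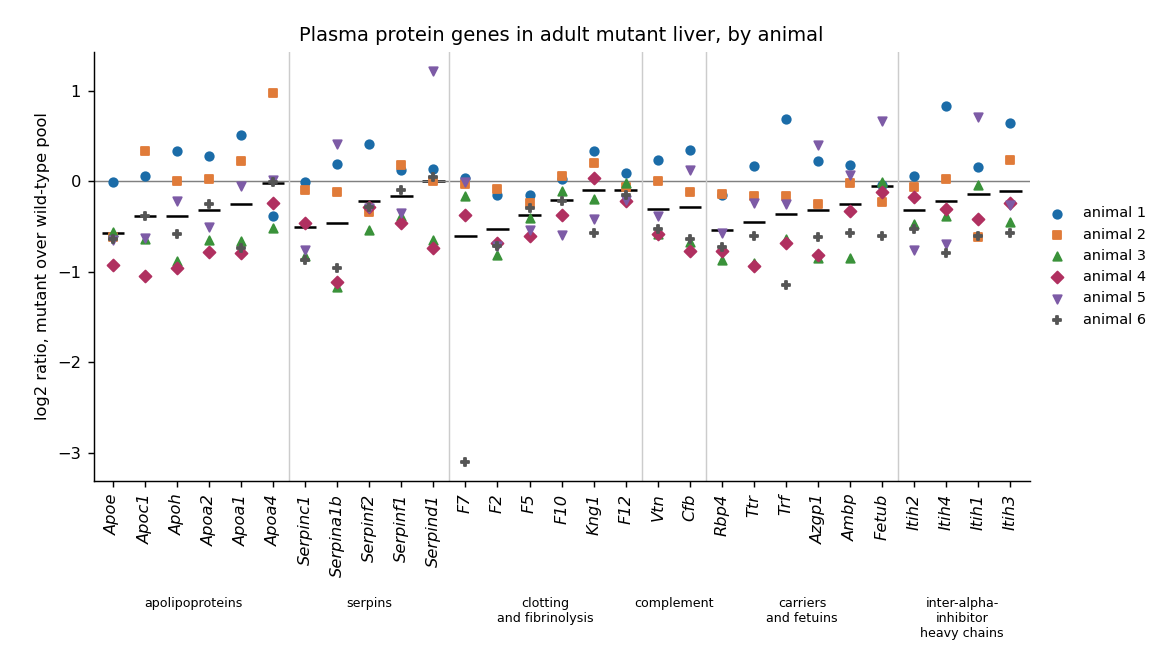
Log2 ratio of mutant over wild-type pool (vertical axis) for the 29 plasma protein genes with a probe, grouped by role; each symbol is 1 of the 6 adult animals (mean of its arrays) and each bar the mean over animals. Animals 3, 4 and 6 lie below 0 for 29, 28 and 28 of the 29 genes, animal 1 for 7, and F7 has a lone value of -3.10 in animal 6.

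Among the apolipoproteins, the protein parts of plasma lipoproteins, all 6 genes measured had a mean below 0, with a median of -0.35. Apoe, a ligand by which receptors take up lipoprotein remnants, had log2 ratios of -0.0045, -0.61, -0.56, -0.93, -0.65 and -0.64 in animals 1 to 6. Animal 1 stood near 0 and the other 5 well below it; the mean was -0.56 ± 0.30 (SD, n = 6 animals; adjusted p = 0.639, limma). Apoc1, a small exchangeable apolipoprotein, ranged from -1.05 in animal 4 to 0.33 in animal 2, with a mean of -0.38 ± 0.50 (SD). Apoh, also known as beta-2-glycoprotein I, had the same mean of -0.38 ± 0.51 (SD) and was lowest in animals 3 and 4, at -0.88 and -0.96. In both genes animals 1 and 2 stood above 0 and the other 4 below. Apoa1 and Apoa2, the main proteins of high density lipoprotein, had means of -0.25 ± 0.56 and -0.31 ± 0.41 (SD), again with animals 1 and 2 above 0. Apoa4 had a mean of -0.02 ± 0.53 (SD), and its 2 probes disagreed: the means were -0.44 and 0.40, and the second was at 1.93 in animal 2. With the Cy3 sign turned Apoe was at -0.18 and Apoc1 at -0.02, and Apoh (0.20), Apoa1 (0.19), Apoa4 (0.16) and Apoa2 (0.0049) were above 0.

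Of the 5 serpins, 4 had a mean below 0, with a median of -0.22. Serpinc1, antithrombin, which inhibits thrombin and factor Xa, had log2 ratios of -0.003, -0.09, -0.83, -0.46, -0.76 and -0.87 in animals 1 to 6. Animals 1 and 2 lay near 0 and the others at -0.46 or lower, with a mean of -0.50 ± 0.38 (SD, n = 6; adjusted p = 0.639, limma). Serpina1b, an alpha-1-antitrypsin that inhibits neutrophil elastase, spread from -1.17 to 0.41 with a mean of -0.46 ± 0.70 (SD). Its transcript is nearly identical to those of the other Serpina1 genes, so a cDNA probe may read several of them. Serpinf2, the plasmin inhibitor alpha-2-antiplasmin, was at 0.42 in animal 1 and between -0.54 and -0.28 in the other 5, and Serpinf1, pigment epithelium-derived factor, had a mean of -0.16 ± 0.28 (SD). Serpind1, heparin cofactor II, was the 1 gene of the 29 with a mean above 0, at 0.005 ± 0.70 (SD), and its animals ran from -0.73 to 1.22. The highest was animal 5, measured with the mutant in Cy5 alone; over the 5 animals with both layouts Serpind1 was at -0.24 and 0 of the 29 means were above 0. With the Cy3 sign turned Serpind1 (0.94) and Serpina1b (0.58) were called higher, and Serpinc1 was at -0.20, Serpinf1 at -0.27 and Serpinf2 at 0.02.

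All 6 clotting genes had a mean below 0, with a median of -0.29. F2, prothrombin, had log2 ratios of -0.15, -0.08, -0.82, -0.68, -0.71 and -0.71 in animals 1 to 6. F5, the cofactor that speeds prothrombin's activation, had -0.15, -0.24, -0.41, -0.60, -0.54 and -0.30. Both genes were below 0 in all 6 animals and nearest to 0 in animals 1 and 2, and F5 had among the smallest spreads of the 29. The arrays behind these means could differ in sign. F2 was at 0.15 in Cy5 and -0.45 in Cy3 in animal 1, and at -0.49 and 0.33 in animal 2. F5 was at -0.52 and 0.04 in animal 2. The means were -0.53 ± 0.32 for F2 and -0.37 ± 0.18 for F5 (SD, n = 6; adjusted p = 0.639 for each, limma). F7, which starts the extrinsic pathway, had the largest mean in size, -0.60 ± 1.23 (SD), through animal 6 at -3.10, with the other 5 between -0.37 and 0.04. That value came from the Cy5 array of animal 6 (-6.19), whereas the Cy3 array of the same animal gave -0.01. F10, F12 and Kng1 (kininogen, the source of bradykinin) had means of -0.20 ± 0.25, -0.09 ± 0.12 and -0.10 ± 0.36 (SD). With the Cy3 sign turned all 6 stayed below 0, with F2 at -0.19, F5 at -0.16 and F7 at -0.67.

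All 6 carrier genes had a mean below 0, with a median of -0.34. Rbp4, which carries retinol in plasma, had log2 ratios of -0.15, -0.14, -0.87, -0.77, -0.57 and -0.72 in animals 1 to 6. All 6 were below 0, with animals 1 and 2 apart from the rest, and the mean was -0.54 ± 0.32 (SD, n = 6; adjusted p = 0.639, limma). Ttr, transthyretin, which carries thyroxine and binds Rbp4, was below 0 in 5 of 6 animals with a mean of -0.45 ± 0.44 (SD; adjusted p = 0.639). Its 2 probes had like means of -0.44 and -0.45 but spreads of 0.73 and 0.23 (SD). Trf, transferrin, the iron carrier, had a mean of -0.36 ± 0.63 (SD); its probes gave -0.74 ± 1.21 and -0.16 ± 0.36. Azgp1, zinc-alpha-2-glycoprotein, was at -0.32 ± 0.54, Ambp, the precursor of alpha-1-microglobulin and bikunin, at -0.25 ± 0.40, and Fetub, fetuin B, at -0.05 ± 0.41 (SD). The 2 genes placed with complement were Vtn, vitronectin, at -0.31 ± 0.34, and Cfb, factor B of the alternative pathway, at -0.29 ± 0.47 (SD). With the Cy3 sign turned all 8 were above 0: Rbp4 at 0.07, Ttr at 0.10, Trf at 0.47, Ambp at 0.26, Vtn at 0.03 and Cfb at 0.22, with Azgp1 (0.59) and Fetub (0.76) called higher. Over the 5 animals with both layouts Fetub was at -0.20.

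The 4 genes listed as heavy chains of inter-alpha-inhibitor all had a mean below 0. The chains of Itih1, Itih2 and Itih3 are carried by bikunin in plasma and pass to hyaluronan. Itih2 was below 0 in 5 of 6 animals, from -0.76 in animal 5 to 0.06 in animal 1, with a mean of -0.32 ± 0.31 (SD, n = 6; adjusted p = 0.641, limma). Itih4, Itih1 and Itih3 had means of -0.22 ± 0.59, -0.13 ± 0.52 and -0.10 ± 0.46 (SD). Animal 1 was above 0 for all 4 genes. Over the 5 animals with both layouts Itih1 was at -0.30. With the Cy3 sign turned Itih2 was at -0.12, Itih3 at -0.06 and Itih4 at 0.04, and Itih1 (0.70) was called higher.

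The spread among the 29 genes went mainly by animal. The median over the 29 was 0.16, -0.06, -0.58, -0.58, -0.26 and -0.58 in animals 1 to 6, while the median over all features stayed between -0.06 and 0.03. On the arrays with the mutant in Cy5 the medians were 0.45, 0.15, -0.50, -0.49, -0.26 and -0.43 in animals 1 to 6. With the mutant in Cy3 they were -0.06 and -0.16 in animals 1 and 2 and -0.69, -0.70 and -0.66 in animals 3, 4 and 6. Animals 1 and 2 stood above animals 3, 4 and 6 in both dye layouts, and the Cy3 arrays were lower than the Cy5 array of the same animal in all 5. Both statements rest on the Cy3 sign as read here. With it turned, animals 1 and 2 would stand below animals 3, 4 and 6 on the Cy3 arrays. Over the 6 animals the mean correlation between pairs of the 29 genes was 0.523, against 0.401 for 40 other plasma protein genes and 0.0023 for all named genes; these genes share the animal, the array and the pool. On the means of the animals each of the 29 correlated positively with the median over the 29. With the Cy5 arrays alone 28 of 29 did, with a lowest r of -0.13. With the Cy3 arrays alone 25 of 29 did, with a lowest r of -0.80. Leaving out 1 animal at a time gave a median over the 29 between -0.41 (without animal 1) and -0.21 (without animal 6).

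**Figure D2:**
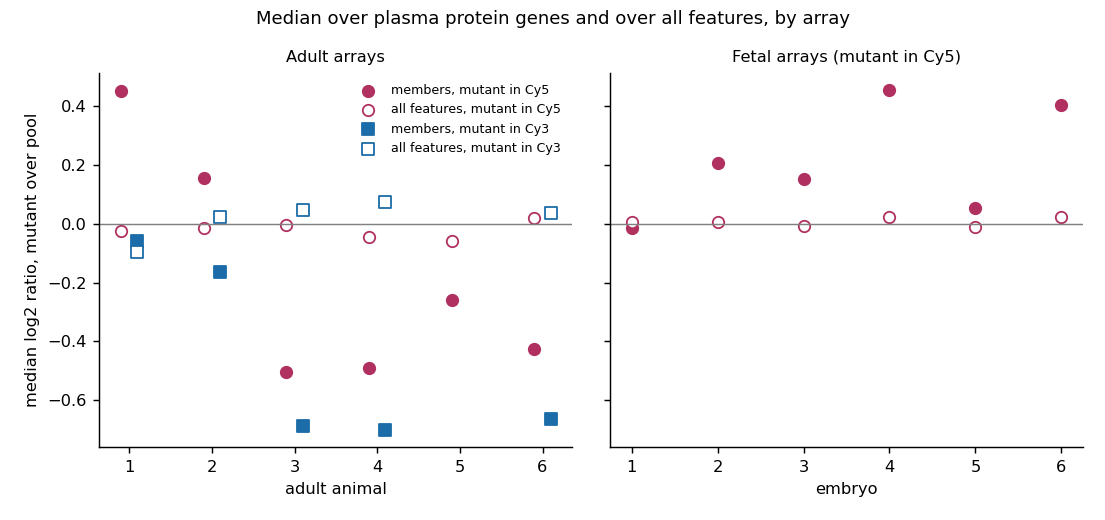
Median log2 ratio (vertical axis) over the plasma protein genes (filled) and over all features (open) on each of the 11 adult arrays (left) and 6 fetal arrays (right). The filled symbols of adult animals 3, 4 and 6 lie between -0.70 and -0.43 on both dye layouts and those of the embryos between -0.01 and 0.45, with the open symbols near 0.

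Hepatocyte markers had like values. Of the 10 markers 7 had a probe, Ttr and Apoa1 among them, and 7 of 7 had a mean below 0 with a median of -0.45; their median by animal was 0.08, -0.10, -0.75, -0.80, -0.29 and -0.74, with the same animals high and low. Tat was at -0.89 ± 0.44, Cyp3a11 at -0.71 ± 0.61 and Alb, albumin, at -0.59 ± 0.57 (SD, n = 6; adjusted p = 0.639 for each, limma). The medians of the other marker lists were 0.16 for macrophages (7 genes), 0.07 for granulocytes (9), 0.09 for cholangiocytes (5), -0.05 for erythroid cells (7), -0.06 for stellate cells (8), -0.07 for exocrine pancreas (6), -0.15 for endothelium (8) and -0.01 for intestine and yolk sac (3, Apoa4 among them). The part of any of these in the values of the plasma protein genes was not tested.

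The dye layouts gave different ratios for some of these genes, with the Cy3 sign as read here; with that sign turned, the same values would be a difference between mutant and pool. Within the 5 animals measured both ways, the log2 ratio with the mutant in Cy5 was higher than with the mutant in Cy3 for 6 of 29 genes at an adjusted p under 0.05 (limma), and lower for 0. Over all 16396 features 8.51% were called higher and 0.579% lower, or 9.09% in either direction. The 6 were Serpind1, Fetub, Itih1, Azgp1, Trf and Serpina1b. Fetub was at 0.75, 0.76, 0.80, 0.47 and 0.16 with the mutant in Cy5 and at -0.82, -1.21, -0.80, -0.70 and -1.36 with the mutant in Cy3 (animals 1, 2, 3, 4 and 6). The layouts did not overlap and the sign turned with the dye in all 5 animals, for a difference of 1.57 ± 0.22 (SE, n = 5; adjusted p = 0.00744). Serpind1 likewise ran from 0.25 to 1.31 in Cy5 and from -1.98 to -0.27 in Cy3, a difference of 1.78 ± 0.31 (SE; adjusted p = 0.0111).

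The differences of Itih1, Azgp1, Trf and Serpina1b were 1.39, 1.26, 1.23 and 1.23 (adjusted p = 0.0131, 0.0132, 0.0120 and 0.0185, limma). In Trf the difference came from a single probe, with means of 0.79 in Cy5 and -2.08 in Cy3, where the other probe gave -0.32 and 0.08. Without animal 4, 3 of the 6 were called, and Azgp1, Itih1 and Serpina1b had an adjusted p of 0.0620, 0.0557 and 0.0711. F7 had a difference of -1.60 (adjusted p = 0.242) through the single value in animal 6. Kng1 and Itih2 lay at the other end, with differences of 0.0028 and 0.01. Of the 6 genes with the smallest p in adult liver, Apoe, F2, F5 and Serpinc1 differed between layouts by -0.16, -0.16, -0.17 and -0.17, and Rbp4 and Ttr by 0.40 and 0.33. The means of all 6 were below 0 in both layouts; those of Rbp4 were -0.37 in Cy5 and -0.73 in Cy3. On the Cy5 arrays alone Fetub (0.60) and Serpind1 (0.75) were called higher, against 5.88% of features, and on the Cy3 arrays alone Fetub (-0.98), Itih1 (-0.997) and Rbp4 (-0.73) were called lower, against 4.1%. The median over the 29 was -0.15 on the Cy5 arrays and -0.41 on the Cy3 arrays.

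**Figure D3:**
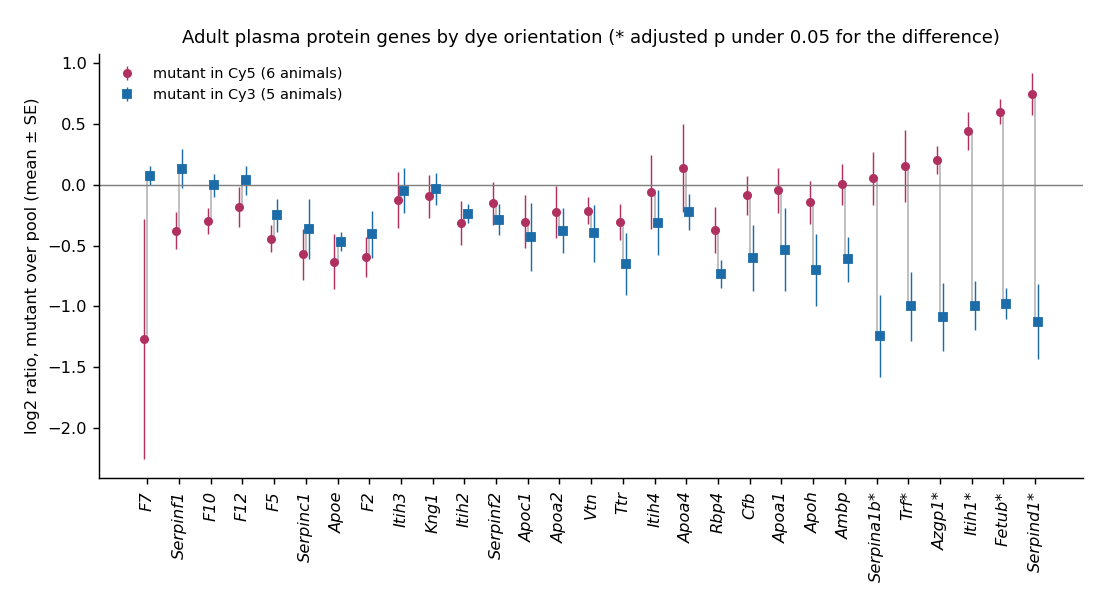
Mean log2 ratio with its SE (vertical axis) for each plasma protein gene in adult liver, with the mutant in Cy5 (circles, 6 animals) and in Cy3 (squares, 5 animals), ordered by the difference; an asterisk marks an adjusted p under 0.05. The 6 starred genes have Cy5 means between 0.05 and 0.75 and Cy3 means between -1.25 and -0.98, whereas Apoe, F2, F5 and Serpinc1 lie below 0 in both.

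In fetal mutant liver most of the plasma protein genes had a mean above the wild-type pool, and none passed the test. The mean log2 ratio was above 0 for 23 of 27 genes, against 51% of all 17242 features, and the median over the 27 was 0.18, against 0.005 over all features. At an adjusted p under 0.05 (limma) 0 of 27 were called, where 0.151% of all features were. At an unadjusted p under 0.05, 11 of 27 were higher (40.7%), against 10.9% of all features, and 0 were lower, against 9.88%. Serpina1b, Serpinc1, Serpind1, Rbp4 and Ambp were above 0 in every embryo, 5 of 27 against 8.34% of features, and 14 of 27 were above 0 in at least 5 of 6 embryos, against 23.2%. The mutant was in Cy5 on all 6 arrays, and among these 5 Serpina1b and Serpind1 were also among the genes higher in Cy5 in adult liver.

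**Figure D4:**
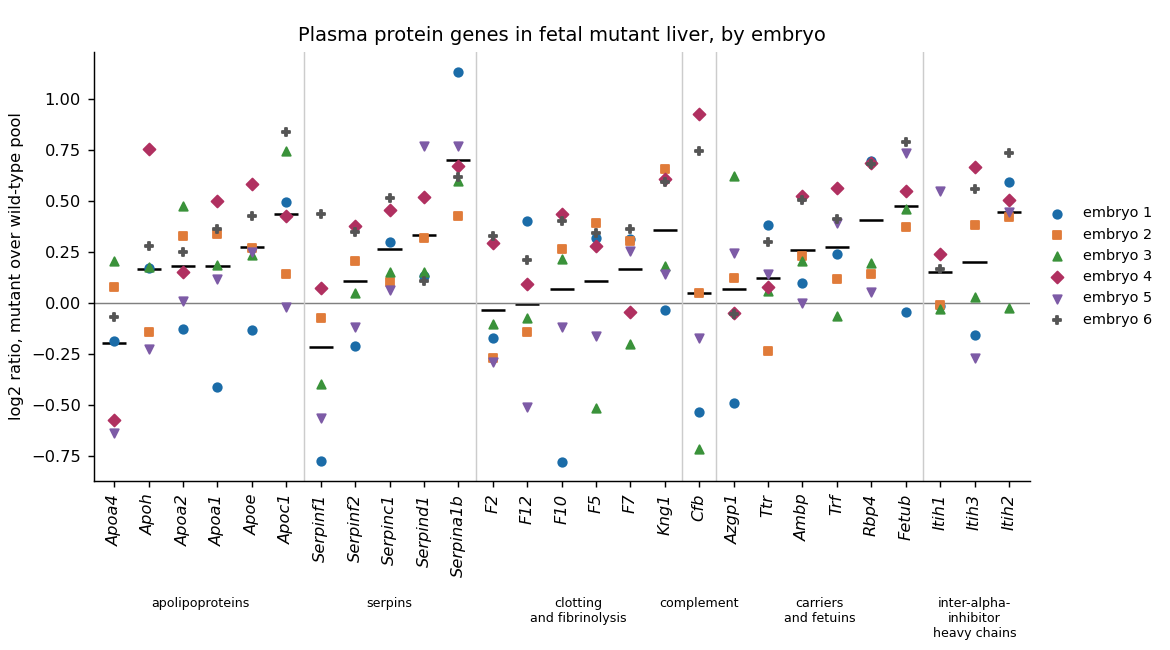
Log2 ratio of mutant over wild-type pool (vertical axis) for the 27 plasma protein genes that could be read in fetal liver, grouped by role; each symbol is 1 of the 6 embryos and each bar their mean. Serpina1b lies highest, with all embryos between 0.42 and 1.13, and Apoa4 and Serpinf1 have the lowest means, at -0.20 and -0.21.

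Serpina1b had log2 ratios of 1.13, 0.42, 0.60, 0.67, 0.77 and 0.62 in embryos 1 to 6. All 6 lay above 0, embryo 1 highest, with a mean of 0.70 ± 0.24 (SD, n = 6; adjusted p = 0.0504, limma). It passed the threshold in 4 other treatments of the data, with single probes tested (adjusted p = 0.0433), with values beyond 10 left out (0.0253), with only features that had a value in every embryo (0.0390) and with the rows above probe 20000 moved as well (0.0493). Its mean stayed at 0.70 in each of these, since only other features changed. It did not pass with arrays centred, with any 1 embryo left out or with row names as deposited (-0.07, adjusted p = 0.574, limma). With the dye profile of the adult arrays subtracted its mean was 0.09. The other serpins above 0 in every embryo were Serpind1, from 0.11 to 0.77 with a mean of 0.33 ± 0.26, and Serpinc1, from 0.06 to 0.52 with a mean of 0.26 ± 0.19 (SD; adjusted p = 0.139 and 0.143). Serpinf2 was at 0.11 ± 0.24 and Serpinf1 at -0.21 ± 0.45 (SD).

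All 6 carriers had a mean above 0, with a median of 0.27. Fetub had log2 ratios of -0.04, 0.37, 0.46, 0.55, 0.74 and 0.79 in embryos 1 to 6, and Rbp4 had 0.70, 0.14, 0.20, 0.68, 0.05 and 0.68. Fetub was near 0 in embryo 1 alone, and Rbp4 was above 0 in all 6 with 3 embryos high and 3 low. The means were 0.48 ± 0.30 and 0.41 ± 0.31 (SD, n = 6; adjusted p = 0.0985 and 0.126, limma). Trf was at 0.28 ± 0.23, Ambp at 0.26 ± 0.21, Ttr at 0.12 ± 0.21 and Azgp1 at 0.07 ± 0.37 (SD). The 2 Ttr probes stood at 0.30 and -0.06, and the 2 Trf probes at 0.12 and 0.43.

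Itih2 had log2 ratios of 0.59, 0.42, -0.02, 0.50, 0.44 and 0.73 in embryos 1 to 6, near 0 in embryo 3 and well above it in the others. Its mean was 0.45 ± 0.26 (SD, n = 6; adjusted p = 0.0906, limma), and Itih3 and Itih1 had means of 0.20 ± 0.39 and 0.15 ± 0.22 (SD). Of the apolipoproteins 5 of 6 had a mean above 0. Apoc1 was highest at 0.44 ± 0.33, with 5 of 6 embryos above 0, followed by Apoe at 0.27 ± 0.24, and Apoa4 was the 1 below, at -0.20 ± 0.34 (SD). The adjusted p of Apoc1 was 0.123. The clotting genes had a median of 0.09: Kng1 was at 0.36 ± 0.30 (SD; adjusted p = 0.141), F7 at 0.16 ± 0.23, F2 at -0.04 ± 0.28 and F12 at -0.0025 ± 0.31. Cfb had the widest spread of the 27, from -0.71 to 0.93, with 1 of its 2 probes lacking a value in embryos 1 and 2.

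The median over the 27 genes was -0.01, 0.21, 0.15, 0.45, 0.05 and 0.40 in embryos 1 to 6, highest in the female embryos 4 and 6. Hepatocyte markers, 6 with a probe, had a median of 0.15, with 4 above 0; by embryo it was -0.34, 0.19, 0.10, 0.32, 0.12 and 0.18. The median of 0.15 lies midway between Ttr (0.12) and Apoa1 (0.18), which also belong to the 27 genes, so it is no separate reference. Exocrine pancreas markers had a median of -0.87 over 6 genes, between -1.21 and -0.47 by embryo, with 5 below 0 and 1 above. Of these, 2 were called lower, against 0.0928% of all features: Cela2a (-1.30 ± 0.46) and Cpa1 (-1.17 ± 0.43; SD, n = 6; adjusted p = 0.0467 for each, limma). Ctrb1 was at -1.85 ± 0.83, and Clps was the 1 above 0, at 0.35 ± 0.19 (SD; adjusted p = 0.0558 and 0.100, limma). The medians were -0.18 for erythroid cells (6 genes, 5 below 0), -0.23 for granulocytes (9, 7 below), -0.09 for macrophages (7), -0.36 for cholangiocytes (5), -0.01 for endothelium (6), 0.08 for stellate cells (8) and -0.20 for intestine and yolk sac (3, where the median is the value of Apoa4, itself among the 27 genes). Their part in the fetal values was not tested. The mean correlation between pairs of the 27 genes over the 6 embryos was 0.210, against 0.0003 for all named genes.

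The dye layout bears on the fetal values, since no array had the mutant in Cy3. Subtracting 0.5 of the adult within-animal dye difference from each gene left a median of 0.04 over the 27 genes. With this profile subtracted, 9 of the 27 were called (33.3%), close to the 30% of all features called, and both counts ignore the profile's own error. Apoe (0.35), F7 (0.96), Itih2 (0.44), Kng1 (0.36) and Serpinc1 (0.35) were higher (15.1% of features), and Azgp1 (-0.56), Itih1 (-0.54), Serpind1 (-0.56) and Trf (-0.34) were lower (14.9% of features). The F7 value rests on the adult array with -6.19. Fetub came to -0.31 and Rbp4 to 0.21. Itih2, Apoc1 (0.34), Kng1 and Serpinc1 thus had like values with and without the profile, whereas Serpind1, Fetub, Trf, Azgp1 and Itih1 turned sign; Ttr, Apoa1, Apoh, Ambp and Cfb also went below 0, to between -0.19 and -0.04. Across the 27 genes the fetal mean and the adult dye difference had a correlation of 0.37 (Pearson, a description across genes, which are not replicates); the fetal rows were placed by this same relation over all probes.

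Between adult and fetal mutants, compared on arrays with the mutant in Cy5 in both, the plasma protein genes mostly had the lower ratio in adults, without passing the test. The difference, adult minus fetal, was below 0 for 22 of 27 genes, against 52.3% of all 16314 features, with a median of -0.32 against -0.02. At an adjusted p under 0.05 (limma) 0 of 27 were called, against 0.141% of features. At an unadjusted p under 0.05, 9 of 27 were lower in adults (33.3%), against 9.24%, and 0 were higher, against 11%. No gene had all 6 adults below all 6 embryos (0 of 27, against 1.13% of features). The wild-type pools of the groups differ, so a difference between the pools cannot be told apart from a difference between the mutants.

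The smallest p-values belonged to Serpinc1 and Apoe. Serpinc1 had an adult Cy5 mean of -0.57 ± 0.51 and a fetal mean of 0.26 ± 0.19 (SD), for a difference of -0.84 with a 95% interval from -1.31 to -0.37. Apoe had -0.63 ± 0.55 and 0.27 ± 0.24, for a difference of -0.90 (-1.41 to -0.40), and both had an adjusted p of 0.0803. In each, 1 adult array, that of animal 1, lay among the embryos, at 0.18 for Serpinc1 and 0.38 for Apoe. Rbp4 differed by -0.78, Itih2 by -0.76 and Apoc1 by -0.74 (adjusted p = 0.0937, 0.0878 and 0.126), F5, F2 and Ttr by -0.55, -0.56 and -0.43, and Serpina1b by -0.65. Without adult animal 1, Apoe (-1.11), Serpinc1 (-0.99), Rbp4 (-0.93), Apoc1 (-0.89), Itih2 (-0.87) and F2 (-0.70) were called lower, 6 of 27 against 2.71% of features. The 5 genes with a difference above 0 were Serpind1 at 0.41 (-0.02 to 0.85), Apoa4 at 0.34, Itih1 at 0.29, Azgp1 at 0.14 and Fetub at 0.13. Of these, 4 were called for the dye difference in adults; the other 2 genes so called, Serpina1b and Trf, were at -0.65 and -0.12. A mean below 0 in adults and above 0 in embryos was held by 22 of 27 genes, against 23.5% of features.

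**Figure D5:**
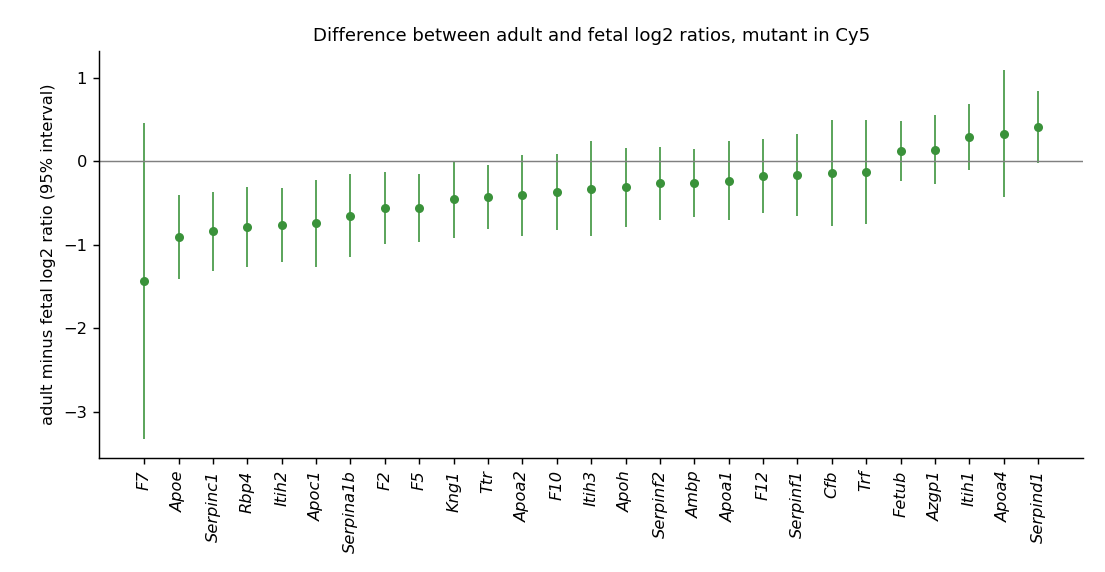
Difference in log2 ratio, adult minus fetal (vertical axis), for the 27 plasma protein genes, on arrays with the mutant in Cy5 (6 adults and 6 embryos); points are estimates and lines 95% intervals, unadjusted for the number of genes. The points of 22 genes lie below 0, and F7, with a lone adult array at -6.19, has the widest interval, from -3.33 to 0.46.

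Female and male embryos were compared with 3 in each group. The difference, female minus male, was above 0 for 21 of 27 genes, against 49.9% of all 17212 features, with a median of 0.19 against -0.0003. At an adjusted p under 0.05 (limma) 0 of 27 were called, against 0.0116% of features, and at an unadjusted p under 0.05, 2 of 27 were higher in females (7.41%), against 1.54%. Every female stood above every male in 3 of 27 (Trf, Fetub and Itih1), against 4.58% of features. Cfb had -0.54, 0.05 and -0.71 in males and 0.93, -0.17 and 0.74 in females, which overlap, for a difference of 0.90. Its 2 probes did not cover the same embryos: probe 7012 had no value in 2 of the 3 males, and probe 12551, with a value in all 6 embryos, gave a difference of 0.19. Trf, at 0.24, 0.12 and -0.06 in males and 0.56, 0.39 and 0.41 in females, did not overlap and differed by 0.36. Only 1 of its 2 probes separated the sexes: probe 7256 lay between -0.285 and -0.122 in males and between 0.226 and 0.636 in females. Probe 17190 overlapped, at 0.77, 0.36 and 0.04 in males and 0.70, 0.14 and 0.60 in females. Fetub and Itih1 differed by 0.43 and 0.34, and Apoa4 by -0.46 (adjusted p = 0.998 for all 5). The sex given for the pool goes with the sex of the embryo on all arrays but that of embryo 3, so pool and embryo sex can hardly be told apart.

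Other genes of the pathway were described by lists chosen with earlier results known. Of 40 other plasma protein genes 35 had a mean below 0 in adults, with a median of -0.25, and 24 of 37 had a mean above 0 in embryos, with a median of 0.09; 0 were called in either (limma). At an unadjusted p under 0.05, 9 of 40 were lower in adults, against 4.37% of all features. In embryos 10 of 37 were higher, against 10.9%, and 2 were lower, against 9.88%. The smallest adult p-values were those of Serpina1e, Selenop, Klkb1 and Pon1, at -0.59 ± 0.34, -0.76 ± 0.51, -0.64 ± 0.48 and -0.58 ± 0.43 (SD, n = 6). Klkb1, plasma prekallikrein, acts with Kng1 and F12, and Pon1, paraoxonase, rides on the lipoproteins of Apoa1. In embryos they were Serpina6, the carrier of corticosterone, at 0.45 ± 0.19, Mbl2 at 0.53 ± 0.37, Pltp at 0.39 ± 0.25 and Saa4 at -0.37 ± 0.26 (SD).

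Liver transcription factors lay nearer to 0. Of 19 measured in adults 13 had a mean below 0, with a median of -0.06; Hnf4a was at -0.29 ± 0.13 and Cebpa at -0.38 ± 0.40 (SD, n = 6; adjusted p = 0.639 for each, limma). In embryos 10 of 18 were above 0, with a median of 0.007, and Cebpa was at -0.67 ± 0.50 (SD; adjusted p = 0.110). Genes of secretion, such as the cargo receptors Tmed10 (-0.37 ± 0.26) and Lman1 (-0.45 ± 0.44), had a mean below 0 for 26 of 32 in adults, with a median of -0.15, and 15 of 31 were above 0 in embryos, with a median of -0.004. Receptors that clear plasma proteins had a median of -0.09 over 8 genes in adults and -0.06 over 7 in embryos. At an adjusted p under 0.05 (limma) 0 genes of these 3 lists were called in either group. At an unadjusted p under 0.05, 2 of 19 transcription factors, 5 of 32 secretion genes and 0 of 8 receptors were lower in adults, against 4.37% of all features. None was higher, against 3.38%. In embryos 2 of 18, 0 of 31 and 0 of 7 were lower, against 9.88%, and 1, 2 and 0 were higher, against 10.9%.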

How the data were processed

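Total RNA of liver was reverse transcribed and labelled indirectly with Cy3 or Cy5, per the labels' protocols. The authors deposited a value table of ratios, taken here as log2 ratios of mutant over pool; how it was background-corrected and normalized, and to which base, is not given in the sources used here. Probes were named from the platform annotation (12771 named, 8023 without a name, left as unnamed features), and all gene IDs matched RefSeq GRCm38.p6. Fetal values were moved by 11 rows for probes up to 20000. This raised the Spearman correlation across those probes between the fetal mean and the adult dye difference from 0.0164 to 0.3816. Of the blocks of probes 20 of 20 were best at 11, so this correlation is no separate result. Above 20000 the best shift was 12, so those rows were given no gene name. With the first 11 rows they made 794 fetal rows that stayed in as unnamed features. These counted in the fetal and female minus male tests, in their Benjamini-Hochberg adjustment and in their shares of all features.

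Probes of a gene were averaged on each array, and then the arrays of an animal. Features with values in at least 4 animals were tested with limma 3.58.1 (lmFit and eBayes, R 4.3.3), with Benjamini-Hochberg adjustment over all features. The fits were tested on simulated data. Arrays give no counts, so their number limits precision. Whether a dye swap of an animal used 1 extract is not stated. Genes named in full were those with the 10 smallest p or the 6 largest means of a comparison, and up to 4 per other list. The members and lists were chosen with earlier results of these data known. Promoter windows came from the RefSeq table. Alternatives were the dye layouts, sign, centring, dye profile, row names, size limits, single probes, left-out animals and blocks. Adult and fetal title numbers shared by animals did not pair them (correlations of deviations 0.0251, 0.0203 and -0.0093).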

Additional observations from a re-analysis of the deposited data

Results flagged for a closer look

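Among 58 sets of values (29 genes in adults, 27 in embryos and the median over the genes in each), 3 had a sample far from the other 5, where chance gives about 1 in 20. Apoa4 was at 0.98 in adult animal 2, with the others between -0.52 and 0.02. Serpinf2 was at 0.42 in adult animal 1, with the others between -0.54 and -0.28. F7 was at -3.10 in adult animal 6, with the others between -0.37 and 0.04, through 1 of that animal's 2 arrays (-6.19 and -0.01). Itih1 stood above 0 in every female embryo and below 0 in every male embryo, a difference of 0.336 that did not pass the test (adjusted p = 0.998, limma).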

How the results depend on the processing

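Adult features called were 0, and became 1764 with the sign of the Cy3 arrays turned, 1106 with Cy5 arrays alone (994 higher), 699 with Cy3 arrays alone (15 higher) and 1 with arrays kept apart under a random block. The members called then were 5, 2, 3 and 0, and the median over members with the sign turned was 0.0285; Serpina1b became 0.58. Fetal features called were 26, and became 4930 with the dye profile subtracted, 83 without values beyond 10, 88 with single probes, 61 with a value in every embryo and 43 with rows above 20000 moved (added after seeing the data), or 2 to 5 without 1 embryo. Members called became 9 with the dye profile (Serpind1 -0.56, Trf -0.34, Azgp1 -0.56 and Itih1 -0.54 reversed), 1 with row names as deposited (Apoa2, -0.62) and 1, Serpina1b, under each of the other 4. For adult minus fetal, features called were 23, and became 9 with both layouts averaged, 1579 with row names as deposited (2 members), 42 without values beyond 10, 10 with the title number as a replicate block (median over members 0.0917; the numbers do not pair the animals), or 4 to 1224 without 1 sample (0 to 6 members; most without adult animal 1, and 78 without embryo 5). For female minus male, features called were 2, and became 0 without values beyond 10 and 0 to 4 without 1 embryo; the median over members was -0.03 with row names as deposited. For the dye difference, features called were 1491, or 638 without animal 4 to 2407 without animal 1 (3 to 6 members). Centring each array moved no count of features called by over 1.5 times, and the cause of each change was not tested. Single animals and the lack of a fetal dye swap limit the small differences.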

Other observations

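Some blood cell markers lay on the opposite side of 0 from the median of the plasma protein genes, without passing the test. In embryos Slc4a1, the anion exchanger of red cells, was at -0.35 ± 0.25, Hba-a1 at -0.23 ± 0.12 and Lcn2, a granule protein of neutrophils, at -0.36 ± 0.18 (SD, n = 6; adjusted p = 0.128, 0.135 and 0.0906, limma). In adults 5 of 9 granulocyte markers were above 0, Prtn3 at 0.56 ± 0.49 and Mpo at -0.10 ± 0.17 among them, and so were 6 of 7 macrophage markers. The macrophage marker with the smallest p, C1qb, was below 0, at -0.33 ± 0.07 (SD, n = 6; adjusted p = 0.639), as was Hba-a1, at -0.38 ± 0.45.

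Cdh5, the endothelial cadherin, was at -0.67 ± 0.30 in adults (SD, n = 6; adjusted p = 0.639, limma) and at 0.09 ± 0.30 in embryos. The fetal value of Itih4 at the 11-row shift, which was not borne out for its probe, would be -0.48 and that of Vtn -0.04.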
